A study of Rattus norvegicus with 4 samples.

Results

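The respiratory chain and ATP synthase are built from subunits of 2 genomes, and the transcripts of both were followed in rat mesenchymal stem cells. Members were the genes with a summed count of at least 40 and a matching symbol. For mitochondrial DNA these symbols were ND1 to ND6, ND4L, COX1 to COX3, CYTB, ATP6 and ATP8. Nuclear symbols were Sdha to Sdhd, Cyc1 and those beginning with Uqcr, Cox4 to Cox8 or Atp5. Those beginning with Nduf also matched where a, b, c, s or v and then a number came next. Assembly factors such as Ndufaf4 and Sdhaf4 thus did not match. The rule used symbols and the summed count alone, with no comparison between libraries. It gave 99 members, 13 encoded by mitochondrial DNA and 86 by nuclear chromosomes, among 12228 genes with that minimum and 34034 genes listed. A further 2 symbols ending in a -ps tag, for pseudogenes, were left out. Of 105 matching symbols, 6 nuclear ones fell below the minimum. Cox7b2, Cox8c and Ndufb4l1 had 0 counts, which allows up to 3 counts in a library (0.302 CPM in the shallowest), while Cox8b and Ndufa10l1 had 4 each and Ndufb11b had 20 over the libraries. The lowest included members were Cox7a2l2 with 55 and Ndufs6 with 69 counts. A separate member, Ndufs6l1, which RefSeq names Ndufs6, had 5698 counts. A summed minimum can pass a low gene through 1 high library, and with a minimum of 200 counts the numbers of mitochondrial and of nuclear members called in each comparison stayed within 1.5 times their values. Counts by complex or list were not recomputed.

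The cells came from rat femurs and were held in osteogenic induction medium, with RNA taken at day 1 after 24 h of treatment. There was 1 library for each of 4 conditions: young cells given vehicle, senescent cells given vehicle, senescent cells given trichostatin A (TSA, a histone deacetylase inhibitor), and senescent cells given TSA with phenamil (an amiloride derivative). The labels name phenamil, whereas the design text names benzyl ether as the other compound, and the labels were followed. Sample titles call the vehicle libraries control and the others "TSA extracs treat" and "TSA and phenamil extracs treat". The word extracs was left uninterpreted. No library of phenamil alone was analysed here. Not given in the sources used here: strain, age, doses, how many animals were used and the way senescence was reached. Libraries read the 3' ends of polyadenylated RNA and held 9873894 to 11024227 counts, and levels below are in CPM, the usual depth-scaled unit of counts (here scaled by TMM). With 1 library per condition there was no replicate spread and no test, so every difference below is between libraries and every interval is a 95% interval of counting error only. Fewer mitochondria, fewer transcripts in each and a changed mixture of cells cannot be told apart in such bulk RNA.

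Complex I (NADH dehydrogenase) and complex II (succinate dehydrogenase) pass electrons to ubiquinone, complex III passes them to cytochrome c, and complex IV (cytochrome c oxidase) passes them to oxygen, while complexes I, III and IV pump protons and complex V (ATP synthase) uses the gradient to make ATP. Mammalian mitochondrial DNA is transcribed from both strands as long RNAs that are cut into messengers, transfer RNAs and ribosomal RNAs, so the levels of single messengers also depend on processing and stability. The nuclear subunits are transcribed gene by gene and imported, and complex II is wholly nuclear. The members divided as 7 mitochondrial and 39 nuclear genes for complex I, 0 and 4 for complex II, 1 and 9 for complex III, 3 and 16 for complex IV, and 2 and 18 for complex V.

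Transcripts of the 2 genomes followed different courses over the libraries. The 13 mitochondrially encoded members took 5.47% of all counts in young cells, 5.66% in senescent cells, 6.02% with TSA and 6.85% with TSA and phenamil, the last with a Wilson interval of 6.84 to 6.87%. This share was highest with both compounds. The 86 nuclear members took 1.67%, 1.82%, 1.96% and 1.704% in the same order, so their share was highest with TSA alone and near the young value with both compounds. For every count on a nuclear member there were 3.28, 3.11, 3.08 and 4.02 counts on mitochondrially encoded members. That quotient needs no scaling between libraries, and the library with both compounds was the one above the range of the other 3.

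**Figure D1:**
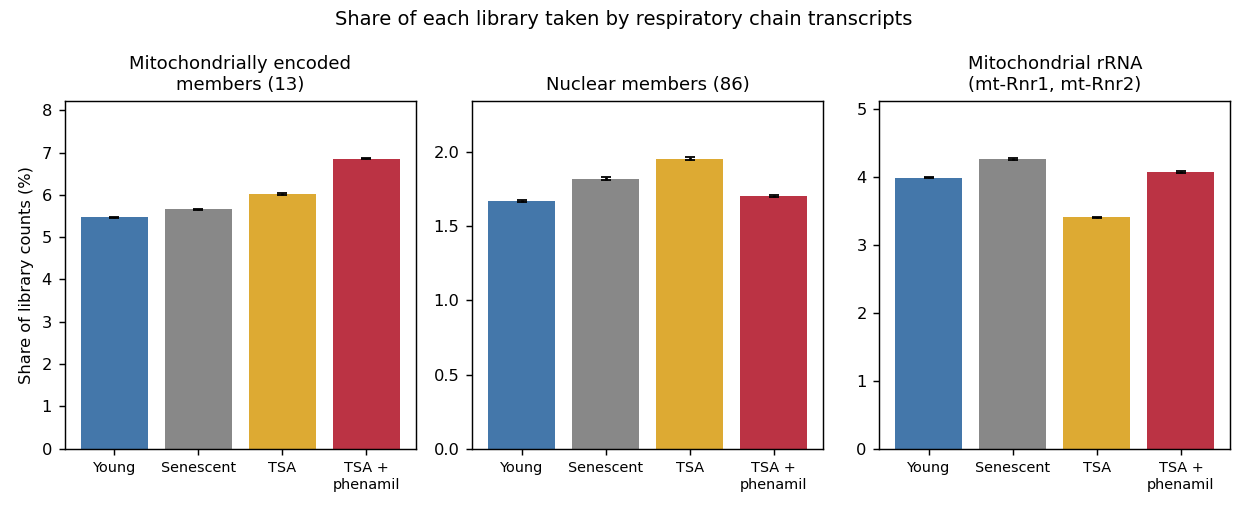
Percent of library counts taken by the 13 mitochondrially encoded members, the 86 nuclear members and the 2 mitochondrial ribosomal RNAs in each of the 4 libraries, with Wilson 95% counting intervals, each panel on its own y axis. The mitochondrial share reaches 6.85% with TSA and phenamil, while the nuclear share peaks at 1.96% with TSA.

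The mitochondrial ribosomal RNAs, mt-Rnr1 and mt-Rnr2, took 3.99%, 4.27%, 3.41% and 4.07% of counts in the same order. They lie on the same DNA and were low with TSA, where the summed share of the 13 messengers was not. Messenger counts per ribosomal RNA count were 1.37, 1.33, 1.77 and 1.68, so both TSA libraries stood above both vehicle libraries. Because the libraries read polyadenylated 3' ends, counts of these RNAs and of the messengers, ND6 included, can follow tails as well as amounts. Which of these differed was not tested. The higher share of the mitochondrial messengers with both compounds was also present among counts outside the mitochondrial ribosomal and transfer RNAs, where it was 5.701%, 5.91%, 6.23% and 7.14%.

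A gene was called higher or lower when its scaled counts differed at least 1.2-fold and the exact interval of the ratio excluded no change. In senescent against young control cells, 11.5% of the 12228 genes were called higher and 11.6% lower. Of the nuclear members 21 of 86 (24.4%) were called higher and 0 lower, with a median log2 ratio of 0.16, beside 0.01 over all genes. Of the mitochondrially encoded members 0 of 13 were called higher and 1 lower, with a median of 0.08. The nuclear median was thus above the mitochondrial one by 0.08 on the log2 scale, a small difference: summed counts were 1.11 times (1.104 to 1.12) the young level for the nuclear members and 1.05 times (1.05 to 1.06) for the mitochondrial ones.

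With TSA against senescent control, where 9.78% of all genes were called higher and 9.79% lower, 11 nuclear members (12.8%) were higher and 1 lower. Their median was 0.10, and 63 of 86 had a ratio above 1, beside 6066 of all 12228 genes. Of the mitochondrially encoded members 1 was higher and 2 lower, with a median of 0.02. The genomes differed little here too, by 0.08 between the medians, with the nuclear members above.

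With TSA and phenamil against senescent control the order turned. All 13 mitochondrially encoded members lay above the nuclear median, 8 were called higher (10.3% of all genes were) and 0 lower (9.93% of all genes were). Their median log2 ratio was 0.29, against -0.06 for the nuclear members, of which 3 (3.49%) were called higher and 9 (10.5%) lower. The gap of 0.35 corresponds to 1.28-fold, and 3 of the 86 nuclear members exceeded the mitochondrial median. The nuclear share called lower was close to that of all genes and the share called higher was below it. Under a ratio of 1 were 56 of 86 nuclear members, beside 6127 of all 12228 genes. The nuclear median lay near the median of -0.001 over all genes, and the mitochondrial median of 0.29 made up most of the gap.

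Adding phenamil to TSA gave the widest gap of the 4 comparisons, 0.43 between the medians or 1.35-fold. Here 11.9% of all genes were called higher and 11.3% lower. Of the mitochondrially encoded members 7 were higher and 0 lower, while 21 of the 86 nuclear members (24.4%) were lower and 1 was higher. The medians were 0.27 and -0.17. Of the nuclear members 76 had a ratio below 1, beside 6099 of all 12228 genes, and 2 exceeded the mitochondrial median. These comparisons share libraries, since the senescent control enters 3 of them and each TSA library enters 2, so their values are given side by side and are not independent of each other.

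**Figure D2:**
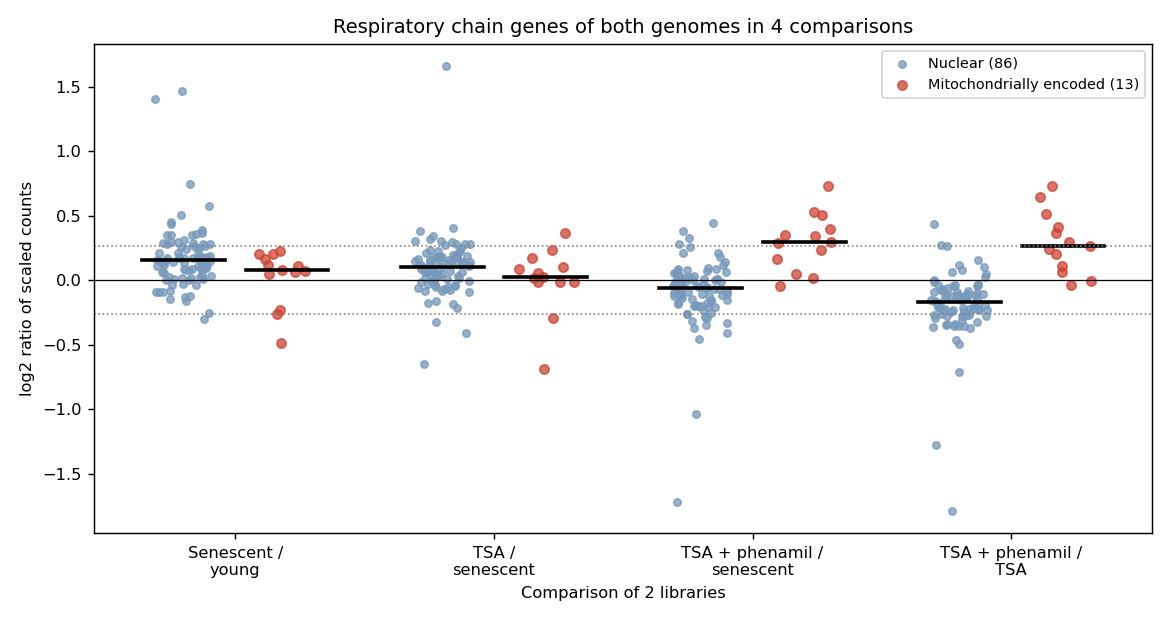
Log2 ratios of the 13 mitochondrially encoded and 86 nuclear members in the 4 comparisons, 1 point per gene, with the median of each genome as a bar and dotted lines at 1.2-fold either way. The ranges overlap in all 4, and in the 2 comparisons with phenamil all 13 mitochondrial points lie above the nuclear median.

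Across all 4 libraries, 9 of 13 mitochondrially encoded members (69.2%) had their highest level with TSA and phenamil, beside 22.9% of all genes. In young cells 10 (76.9%) had their lowest, beside 28.1% of all genes. Of the nuclear members 56 of 86 (65.1%) were highest with TSA alone, where 28.0% of all genes were highest. In young cells 51 (59.3%) were lowest and with both compounds 26 (30.2%), beside 28.1% and 22.7% of all genes. The commonest course of a nuclear member was thus an arch that peaked with TSA alone, and that of a mitochondrial member peaked with both compounds.

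The complex I messengers of mitochondrial DNA gave the largest summed difference with both compounds. ND4, a proton-pumping membrane subunit, stood at 9424 CPM in young cells, 7879 in senescent cells, 10165 with TSA and 13089 with both compounds. It was lowest in the senescent control, which none of the other 12 mitochondrial messengers was. Its ratio to the senescent control was 1.29 (1.28 to 1.302) with TSA and 1.66 (1.65 to 1.68) with both compounds. ND2, another pumping subunit, was level in the first 3 libraries, at 3171, 3447 and 3422 CPM, and reached 4892 CPM with both compounds, 1.42 times (1.4 to 1.44) the senescent level. ND4L, read from the same messenger as ND4, was at 466, 504, 594 and 728 CPM. It did not share the low senescent value of ND4, and its part of the counts of the pair was 4.71%, 6.01%, 5.52% and 5.27%. The reading frames of this pair overlap, so counting may have split or dropped their reads.

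ND1, which helps to form the ubiquinone site, had 1995, 2094, 2122 and 2558 CPM. ND5, the largest pumping subunit, had 381, 395, 424 and 502 CPM. Both were above all other libraries with both compounds, ND1 by 1.22-fold and ND5 by 1.27-fold over the senescent control. ND3, a small membrane subunit, went from 4465 in young to 5215, 5863 and 6145 CPM, and no comparison reached 1.2-fold. ND6 is the only messenger of this set on the light strand, opposite to the others, and had 49.1, 35.1, 28.7 and 44.9 CPM from 285 to 545 counts. It was the one mitochondrial member called lower in senescent cells, at 0.715 times (0.626 to 0.816), was lower again with TSA at 0.818 times (0.699 to 0.955), and was 1.56 times (1.35 to 1.82) higher with both compounds than with TSA. Whether counting used the strand is unknown from the sources used here, so antisense reads of its neighbours cannot be told apart from it.

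CYTB, the one mitochondrial subunit of complex III and the site of its quinone reactions, had 5423, 6246, 6493 and 6996 CPM and was never called. The complex IV messengers encode its catalytic core. COX1, which holds the oxygen-reducing centre, had 7399, 8502, 8423 and 8231 CPM, and COX3 had 5833, 6525, 6634 and 6619 CPM. Both were lowest in young cells and level over the 3 senescent libraries, with ratios to the senescent control between 0.968 and 1.02. COX2, which receives electrons from cytochrome c, had 4861, 5123, 5440 and 6279 CPM and was called higher with both compounds, at 1.23 times (1.21 to 1.24). With both compounds COX1, COX3 and ATP8 were at 0.968, 1.01 and 1.04 times the senescent control, and CYTB and ND3 were higher but not called, so the 13 messengers did not all move alike. COX1 and COX3 lost share within the set: their part of the 13 went from 15.01% to 11.8% and from 11.5% to 9.46% between the senescent control and both compounds, while the part of ND4 went from 13.9% to 18.7%.

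ATP6, which forms the proton path of ATP synthase, had 9534, 9989, 9878 and 13163 CPM, level in 3 libraries and 1.32 times (1.31 to 1.33) the senescent level with both compounds. ATP8, a small subunit of the same complex read from the same messenger, had 811, 693, 432 and 717 CPM and was lowest with TSA, at 0.623 times (0.599 to 0.647) the senescent control. Its part of the counts of the pair was 7.84%, 6.49%, 4.19% and 5.17%. ATP8 thus moved apart from ATP6 although both lie on 1 messenger. Their reading frames overlap, and 3' end reads belong mainly to ATP6, so a count on ATP8 marks reads away from the messenger's end. What set the difference was not tested.

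**Figure D3:**
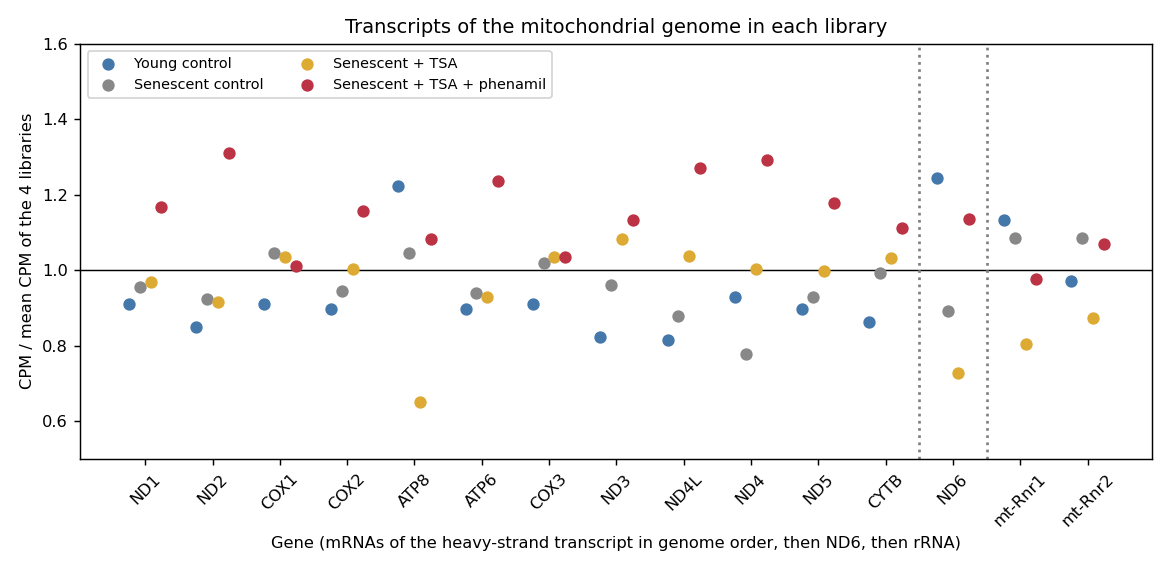
Level of each of the 13 mitochondrially encoded members and the 2 mitochondrial ribosomal RNAs in the 4 libraries, as CPM over the gene's own mean of the 4 libraries, with ND6, the one light-strand messenger, between dotted lines. ND4 and ATP6 are highest, at 13089 and 13163 CPM, with both compounds, COX1 and COX3 stay level in the senescent libraries, and ATP8 and the ribosomal RNAs dip with TSA.

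Summed by complex, the mitochondrial messengers with both compounds were 1.43 times (1.42 to 1.44) the senescent level for complex I, 1.299 for complex V, 1.12 for complex III and 1.05 for complex IV. The nuclear subunits of the same complexes were at 0.958, 0.956, 0.901 and 0.967, and those of complex II at 1.03 (0.9797 to 1.08). Every complex built from both genomes thus had its mitochondrial sum above its nuclear sum. The sums leaned on abundant messengers, ND4 in complex I and ATP6 in complex V. The medians over mitochondrial genes in this comparison were 1.28 for complex I and 1.17 for complex V. In senescent against young cells the nuclear sums were 1.07 to 1.13 in all 5 complexes, and the mitochondrial sum of complex I was 0.981, with ND4 and ND6 below 1 and the other 5 messengers above it.

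**Figure D4:**
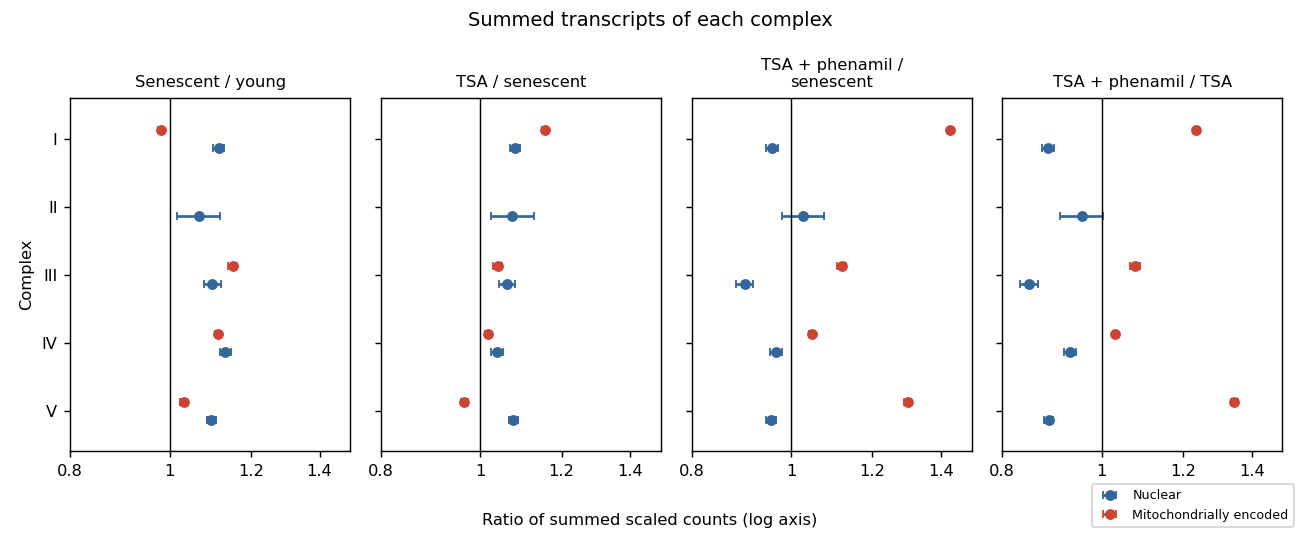
Ratio of summed scaled counts of the nuclear and the mitochondrially encoded members of each complex, on a log axis, with exact 95% counting intervals (complex II has no mitochondrial member). With TSA and phenamil against the senescent control the mitochondrial sums run from 1.05 to 1.43 and the nuclear sums from 0.901 to 1.03.

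Promoters of the nuclear members were examined because respiratory genes are known for sites of NRF1, of the ETS factor GABP (also called NRF2) and of YY1. RefSeq promoters of the build GRCr8, from 250 bases before to 50 after the start, were found for 75 of the 86 nuclear members. Both strands were searched. The NRF1 palindrome, GCGCA joined to its reverse complement TGCGC, was in 4 (5.33%), beside 0.932% of all 27457 promoters and 1.98% of the 9856 promoters of genes with enough counts. The ETS motif CCGGAAG was in 21 (28.0%), beside 9.22% and 18.8%, and the YY1 motif AAGATGG in 19 (25.3%), beside 7.3% and 8.52%. Of the YY1 matches 13 of 19 lay on the gene's own strand and reached past the start. The letters AAG end the ETS motif and begin the YY1 motif, so these could overlap, but no such matches overlapped in the member promoters. At least 1 of the 3 motifs was in 36 promoters (48.0%), beside 16.3% of all promoters and 26.7% of those of genes with enough counts. A match describes letters and not a bound site.

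Shown are 100 bases ending just before the start of the 4 promoters with the NRF1 palindrome, with NRF1 and ETS matches in capitals. They belong to Atp5me at chr14:1464760-1464859 on the plus strand, Atp5mc2 at chr7:135678219-135678318 on the minus strand, Atp5po at chr11:44657484-44657583 on the minus strand and Ndufa11 at chr9:1637514-1637613 on the plus strand of GRCr8.
Atp5me: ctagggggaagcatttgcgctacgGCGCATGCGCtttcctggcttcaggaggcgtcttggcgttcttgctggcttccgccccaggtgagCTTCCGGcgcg
Atp5mc2: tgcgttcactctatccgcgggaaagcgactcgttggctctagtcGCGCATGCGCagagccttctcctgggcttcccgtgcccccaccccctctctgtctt
Atp5po: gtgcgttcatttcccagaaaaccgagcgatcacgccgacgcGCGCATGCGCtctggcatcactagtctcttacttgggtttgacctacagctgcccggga
Ndufa11: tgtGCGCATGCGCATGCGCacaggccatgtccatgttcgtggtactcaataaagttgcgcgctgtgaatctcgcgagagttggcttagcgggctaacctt
In Ndufa11 the palindrome occurs as an overlapping pair. These 4 genes moved differently: Atp5me was called higher with TSA and lower on adding phenamil, Atp5po was called lower on adding phenamil, and Atp5mc2 and Ndufa11 were never called. For contrast, the same window is shown for Ndufa5, which ranked first by its interval among nuclear members called higher with both compounds, and for Ndufa9 and Ndufb2, both called lower there. They lie at chr4:53971236-53971335 on the minus strand, chr4:161374171-161374270 on the minus strand and chr4:69334207-69334306 on the plus strand.
Ndufa5: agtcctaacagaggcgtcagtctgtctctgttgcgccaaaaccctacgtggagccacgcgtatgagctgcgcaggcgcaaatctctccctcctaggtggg
Ndufa9: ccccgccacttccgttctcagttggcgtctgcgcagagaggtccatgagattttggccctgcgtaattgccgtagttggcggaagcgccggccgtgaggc
Ndufb2: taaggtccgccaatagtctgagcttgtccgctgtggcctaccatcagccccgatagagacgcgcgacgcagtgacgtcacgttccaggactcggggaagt
None of the 3 motifs was found in these 100 bases, which says only that those letters are not there, and Ndufa9 held the YY1 motif at bases 11 to 17 after the start. Members with and without an ETS match had median log2 ratios of 0.18 and 0.07 with TSA, of 0.01 and -0.10 with both compounds, and of -0.19 and -0.17 on adding phenamil. For YY1 the pairs were 0.09 and 0.10, -0.05 and -0.09, and -0.15 and -0.18.

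Among the nuclear complex I genes, 9 of 39 (23.1%) were called higher in senescent cells, beside 11.5% of all genes, of which Ndufs3 is a core subunit and the other 8 are accessory subunits. Ndufa12, an accessory subunit, had 116 CPM in young, 173 in senescent, 190 with TSA and 150.1 with both compounds, 1.49 times (1.39 to 1.602) higher in senescent than in young cells. Ndufv3, an accessory subunit of the NADH-binding module, had 30.7, 43.8, 33.0 and 36.8 CPM. It stood highest in senescent cells, at 1.42 times (1.24 to 1.64) the young level, and was the one nuclear member called lower with TSA, at 0.753 times (0.653 to 0.869). Its module partner Ndufv1, at 88.8, 98.8, 85.3 and 78.7 CPM, was also highest in senescent cells and was 0.863 times (0.788 to 0.945) that level with TSA, short of a call. Ndufv2, with 138, 126, 122 and 146 CPM, was not highest there. Ndufv2, an iron-sulfur subunit, was the single nuclear member called higher on adding phenamil, at 1.202 times (1.11 to 1.297).

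Ndufa5, an accessory subunit of the peripheral arm, had 206, 223, 271 and 280 CPM, with both TSA libraries above both vehicle libraries. It was called higher with TSA at 1.22 times and with both compounds at 1.26 times (1.19 to 1.33). Ndufs1, the largest iron-sulfur subunit, had 72, 97, 114 and 126 counts, and was called with both compounds only, at 1.36 times (1.04 to 1.79). Other accessory subunits went the other way with both compounds, Ndufa9 to 0.753 times (0.668 to 0.848) and Ndufb2 to 0.818 times (0.774 to 0.864) the senescent level. Ndufa3 had 89.8, 102, 129 and 101 CPM and Ndufa4, now counted with complex IV by many authors, had 251, 290.2, 350.1 and 278 CPM. Both peaked with TSA alone and were lower by about the same ratio on adding phenamil, 0.781 and 0.793. Ndufa4l2, a paralog known for induction by low oxygen, was never called and had 32.7 to 38.2 CPM.

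Complex II was measured by its 4 subunits. Sdha, the flavoprotein that oxidises succinate, had 41.3, 38.8, 51.3 and 43.9 CPM, and was called higher with TSA at 1.32 times (1.16 to 1.51). Sdhd, a membrane anchor, had 38.3, 40.6, 50.2 and 49.2 CPM and was called higher in both TSA libraries, at 1.24 and 1.21 times. Sdhb, the iron-sulfur subunit, and Sdhc, the other anchor, were never called and had ratios to the senescent control of 0.931 to 1.07. The 2 called subunits were thus higher with TSA while their partners were not called.

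In complex III, Uqcrfs1, the Rieske iron-sulfur protein, had 90.0, 118, 113 and 104 CPM and was called higher in senescent cells at 1.31 times (1.204 to 1.42). Uqcrc1, a core subunit, had 93.2, 101, 118 and 84.0 CPM and was 0.711 times (0.651 to 0.777) the TSA level on adding phenamil. Uqcr11 was called lower with both compounds at 0.788 times (0.745 to 0.833) the senescent level. Cyc1, the cytochrome c1 that hands electrons to cytochrome c, was never called and had 142 to 157 CPM. All 9 nuclear complex III members had a ratio below 1 on adding phenamil, while CYTB of the same complex was at 1.08.

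Complex IV contains subunits with tissue isoforms. The general isoforms Cox4i1, Cox6a1 and Cox8a were never called, nor were Cox5a and Cox7a2l, all with ratios of 0.925 to 1.14 over the 4 comparisons. Cox6b1, the general form beside Cox6b2, was called higher in senescent cells at 1.205 times, and Cox4i2, the isoform linked to low oxygen, was never called either. Cox7a2, the general form of that subunit, had 64.5, 82.1, 77.2 and 60.0 CPM, was 1.27 times (1.15 to 1.41) higher in senescent than in young cells, and was 0.731 times (0.659 to 0.8102) the senescent level with both compounds. Cox7b, a small structural subunit, had 186, 255, 280.3 and 247 CPM, so all 3 senescent libraries stood above the young one, at 1.37 times (1.29 to 1.45) for the senescent control. The rarer isoforms rested on few counts: Cox6b2, known from testis, had 19, 53, 50 and 15 counts, and Cox7a1, known from heart and muscle, had 13, 35, 25 and 16. Both were low in young cells and with both compounds, Cox6b2 was at about the same level in the senescent control and with TSA (4.81 and 5.04 CPM), and Cox7a1 was highest in the senescent control. The ratio of Cox6b2 was 2.81 (1.64 to 5.03) in senescent against young cells and 0.297 (0.155 to 0.535) with both compounds. Cox6a2, another muscle form, had 28 to 61 counts and was never called. Markers of skeletal muscle summed to 41.6, 53.3, 37.5 and 51.3 CPM, mostly Acta1, and their part in these isoforms was not tested.

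In complex V, Atp5pf, a subunit of the peripheral stalk, had 172, 222, 270 and 237 CPM and was called higher both in senescent cells, at 1.29 times (1.22 to 1.37), and with TSA, at 1.22 times (1.15 to 1.29). Atp5me and Atp5mk, small subunits of the membrane part, peaked with TSA alone, Atp5me at 611 CPM against 455, 494 and 505, and Atp5mk at 166 CPM against 119, 134 and 138. On adding phenamil both were at 0.826 times the TSA level. Atp5f1d, the delta subunit of the central stalk, had 113, 114, 126 and 91.3 CPM, level in 3 libraries and 0.728 times (0.668 to 0.792) the TSA level with both compounds. All 18 nuclear complex V members had a ratio below 1 on adding phenamil, while ATP6 was at 1.33 and ATP8 at 1.66.

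The catalytic subunits Atp5f1a and Atp5f1b were never called, with 260 to 316 and 430 to 484 CPM. Of the 3 genes for the same c-ring protein, Atp5mc3 was called higher in senescent cells at 1.22 times, Atp5mc1 was called lower on adding phenamil at 0.831 times, and Atp5mc2 was never called. Atp5if1, the inhibitor of ATP hydrolysis, was at 586, 663, 697 and 677 CPM and never called. Processed copies of such genes can share reads with them. One pseudogene left out by the rule, Ndufb4-ps6, had 243, 158, 110 and 112 counts, an order unlike that of Ndufb4.

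**Figure D5:**
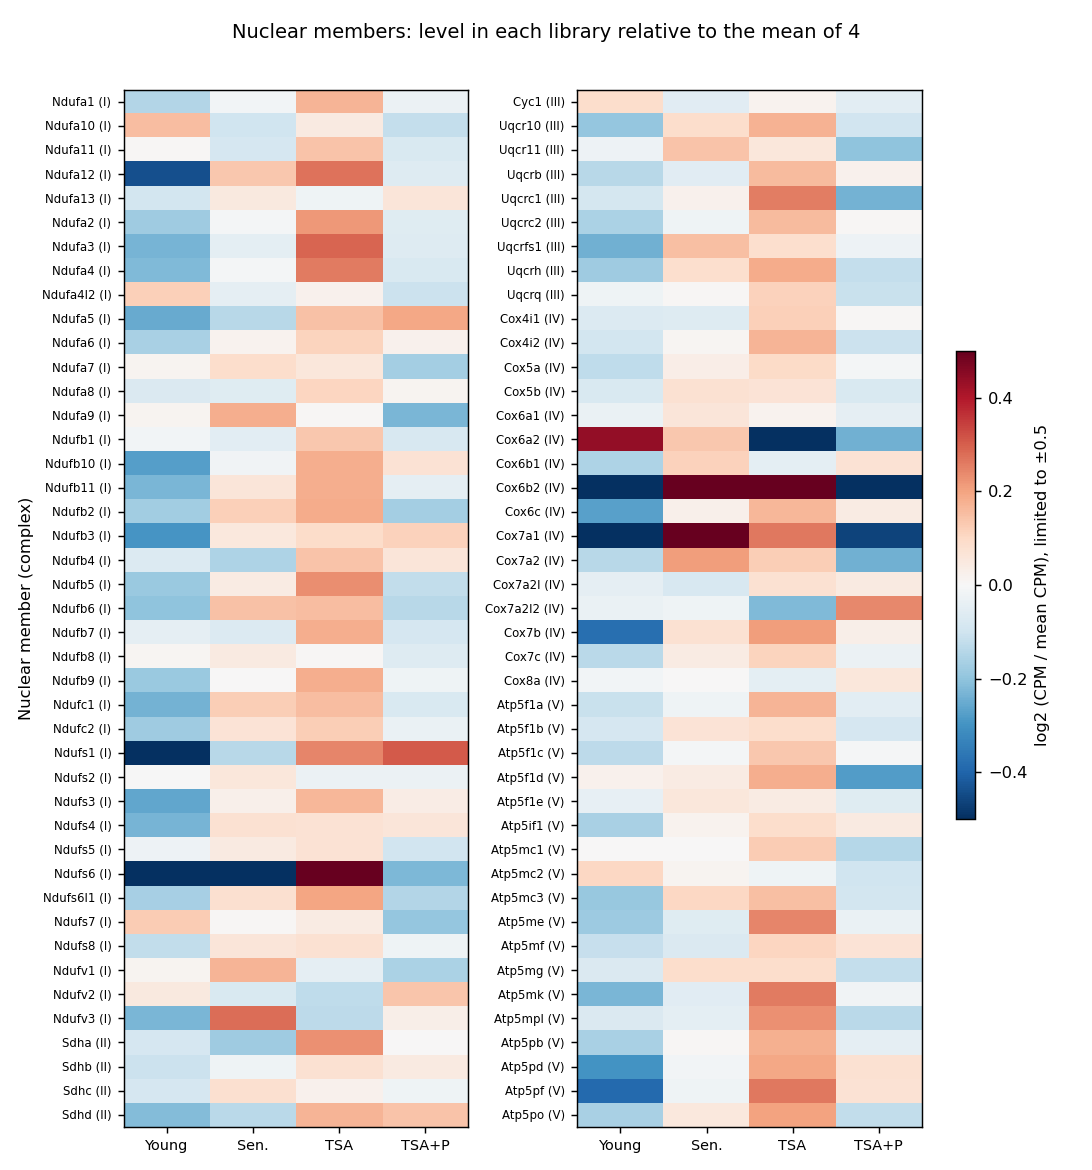
Level of each of the 86 nuclear members in the 4 libraries as log2 of CPM over its own mean across the libraries, limited to ±0.5, with the complex in parentheses. Most genes are blue in young cells (51 lowest there) and red with TSA (56 highest there), and Cox6b2 and Cox7a1 stand out as high in the senescent control and with TSA.

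The 74 genes of mitochondrial ribosomal proteins had median log2 ratios of 0.10, 0.11, -0.03 and -0.12 in the 4 comparisons in the order above. On adding phenamil 15 of them (20.3%) were called lower, beside 11.3% of all genes. The 86 genes of cytosolic ribosomal proteins had medians of 0.13, 0.14, 0.07 and -0.09, so they stayed above 0 with both compounds, where the nuclear respiratory members were at -0.06. Of them 19 (22.1%) were called higher with TSA, beside 9.78% of all genes, and 13 (15.1%) higher and 2 (2.33%) lower with both compounds, beside 10.3% and 9.93%. On adding phenamil 2 (2.33%) were called lower, against 24.4% of the nuclear respiratory members. The medians of the mitochondrial ribosomal set had the same signs as those of the nuclear respiratory members in all 4 comparisons, and those of the cytosolic set in 3.

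Of 30 genes that express mitochondrial DNA, 5 (16.7%) were called higher and 4 (13.3%) lower in senescent cells, beside 11.5% and 11.6% of all genes. With TSA 3 (10%) were higher and 0 lower, beside 9.78% and 9.79%. With both compounds 3 (10%) were higher and 2 (6.67%) lower, beside 10.3% and 9.93%. On adding phenamil 2 (6.67%) were higher and 3 (10%) lower, beside 11.9% and 11.3%. Tfam, which packages and activates mitochondrial DNA, had 37.3, 36.0, 41.0 and 37.8 CPM and was never called, nor was Polrmt, the mitochondrial RNA polymerase, with 55 to 75 counts. Lrpprc, which stabilises most mitochondrial messengers and their tails, had 75.8, 73.6, 91.1 and 95.4 CPM. Both TSA libraries stood above both vehicle libraries, at 1.24 (1.13 to 1.36) and 1.296 (1.18 to 1.42) times the senescent control, whereas its partner Slirp was called only in senescent against young cells, at 1.29. Pnpt1, an RNA-degrading enzyme, had 49, 25, 48 and 61 counts and was called lower in senescent cells at 0.514 times (0.304 to 0.848), then higher with TSA and with both compounds. Mterf1, a termination factor, was also lowest in the senescent control, at 48, 27, 36 and 56 counts. It was called lower in senescent cells and higher with both compounds. Of 13 genes that maintain mitochondrial DNA, 1 (7.69%) was called higher and 3 (23.1%) lower in senescent cells, and 2 (15.4%) and 0 with TSA. With both compounds 3 (23.1%) and 0 were called, and on adding phenamil 1 (7.69%) and 1 (7.69%). The shares of all genes beside these are the same as for the set above. Ssbp1, the single-strand binding protein of mitochondrial DNA, was called higher in both TSA libraries, at 1.22 and 1.21 times. Atad3a, a membrane protein that helps to organise it, was called lower in senescent cells at 0.803 times, higher with both compounds at 1.28 times and higher on adding phenamil at 1.31 times.

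Of 16 transcription regulators of respiratory genes 11 had enough counts, and Ppargc1a, a coactivator of mitochondrial biogenesis, did not. Nrf1 had 19.7, 16.3, 14.7 and 19.9 CPM and was called higher on adding phenamil, at 1.35 times (1.09 to 1.68). Pprc1, a relative of Ppargc1a, was also called higher there at 1.29 times, Gabpb1, the partner subunit of GABP, was called lower at 0.694 times (0.539 to 0.893), and Gabpa was never called. Epas1, a factor of the low oxygen response, was lower with TSA at 0.751 times and higher on adding phenamil at 1.42 times. In all, 4 of the 11 regulators (36.4%) were called higher and 2 (18.2%) lower on adding phenamil, beside 11.9% and 11.3% of all genes.

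Of 23 assembly factors of complex IV, 5 (21.7%) were called higher and 2 (8.7%) lower in senescent cells, beside 11.5% and 11.6% of all genes. On adding phenamil 0 were higher and 6 (26.1%) lower, beside 11.9% and 11.3%. Higd1a had 193, 235, 279 and 210.4 CPM, the arch seen in most subunits, and Cmc1 and Cmc2, small assembly factors, were lower with both compounds at 0.747 and 0.7597 times the senescent level. For complex I, 3 of 16 factors (18.8%) were higher and 4 (25.0%) lower on adding phenamil, and for complexes II and III 0 of 13 were called either way. Of 6 ATP synthase factors, 2 (33.3%), Atpaf2 and Tmem242, were lower on adding phenamil. Of 17 genes for ubiquinone, cytochrome c and the enzymes that feed them, Dhodh, which links pyrimidine synthesis to the chain, had 76, 32, 60 and 69 counts, lower in senescent cells at 0.424 times (0.271 to 0.649) and higher with TSA and with both compounds. Coq2 went the other way, at 1.69 times (1.4 to 2.04) in senescent cells and 0.702 times with both compounds, and Cycs, cytochrome c itself, was never called.

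Of 18 genes of the tricarboxylic acid cycle and pyruvate dehydrogenase, 4 (22.2%) were called higher and 1 (5.56%) lower in senescent cells, beside 11.5% and 11.6% of all genes. With TSA and again with both compounds 3 (16.7%) were higher and 1 (5.56%) lower. Of all genes, 9.78% and 9.79% were called so with TSA, and 10.3% and 9.93% with both compounds. On adding phenamil 0 were higher and 1 (5.56%) lower, beside 11.9% and 11.3%. Each lower share was 1 of 18 genes, too few to set apart from the shares of all genes. Cs, citrate synthase, which is often used as a measure of mitochondrial mass, had 95.1, 100.1, 111 and 112 CPM and was never called. Of 19 genes of the outer membrane and import, Tomm7 had 522, 661, 753 and 600.2 CPM, again highest with TSA alone and called lower on adding phenamil at 0.797 times. On adding phenamil 0 of this set were called higher, beside 11.9% of all genes, and 2 (10.5%) lower, near the 11.3% of all genes.

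Identity markers bore on the mixture of cells. Summed stromal markers stood at 1003 to 1048 CPM, mostly Thy1, and Cd44 was present in all 4 libraries. Single stromal markers moved within that sum: of 7, 2 (28.6%) were called higher and 1 (14.3%) lower with TSA, beside 9.78% and 9.79% of all genes. Pdgfrb was at 46.5, 38.8, 25.7 and 46.9 CPM and Vcam1 at 2.07, 0.908, 2.22 and 0.857 CPM. Summed markers were 5.14 to 9.38 CPM for macrophages (7 genes, mostly Cd14, with Adgre1, Lyz2 and Cd163 at 0), at most 0.381 for endothelium, 0.857 for fat cells and 1.62 for red cells. The macrophage sum was higher in both TSA libraries than in both vehicle libraries, and its part in the results was not tested. Meg3, an RNA largely kept in the nucleus, was lower in senescent than in young cells at 0.799 times and not called in the other comparisons.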

How the data were processed

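RNA of 4 libraries, 1 for each condition and given the same batch in the labels, was made into QuantSeq 3' FWD libraries and read on a NextSeq 500, per the labels' protocols. The submitters' processing notes name HTSeq 2.0.2, STAR 2.7.10b and, as genome build, mRatBN7.2. Not given in the sources used here: annotation, use of strand and any handling of molecular identifiers. Reads without identifiers are not independent molecules, so intervals cover counting error only. The deposited counts are raw whole numbers per gene, per the file headers. The deposited log2 values are normalized, per the file headers, and on checking equalled log2 of the count over 1 factor per library, plus 1, within 0.000582.

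Counts were scaled by TMM (trimmed mean of M-values) with edgeR 4.0.16 in R 4.3.3, on genes with a summed count of at least 40. Its quasi-likelihood test could not be run with 1 library per group. Ratios of scaled counts have exact conditional binomial (Clopper-Pearson) 95% intervals, shares have Wilson 95% intervals, and log2 ratios use a prior count of 0.5. Python 3.11.15, numpy 2.4.6, pandas 2.3.3, scipy 1.17.1, statsmodels 0.14.6 and matplotlib 3.10.9 were used. The ratio script was tested on simulated data. Alternatives were total counts, size factors of DESeq2 1.42.0, TMM without the mitochondrial genes and members, minimum totals of 1 and 200, a prior of 2, folds of 1.1 and 1.5, calls without the interval, and the deposited log2 values. Named genes were all mitochondrially encoded members, the 5 highest and 5 lowest called nuclear members per comparison (100 counts or more), ordered by the closer interval bound to no change, anchor members, and up to 3 called genes per list and direction. The lowest members, Ndufs6l1, the pseudogene, the transfer RNAs and the genes with printed promoters were chosen after their values were seen. The members and the lists were chosen with earlier results of these data known. Gene names come from the files, and promoters from RefSeq tables of GRCr8, another build than that of the counts; Ndufs6l1 is named Ndufs6 there.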

Additional observations from a re-analysis of the deposited data

How the results depend on the processing

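Under the 7 alternatives that recompute them, mitochondrial minus nuclear medians were -0.08 to -0.078 in senescent against young cells and -0.093 to -0.08 with TSA. They were 0.347 to 0.352 with both compounds and 0.428 to 0.441 on adding phenamil. Other scaling shifts all ratios of a comparison alike, so total counts, DESeq2 size factors and TMM without members could not change this gap. Only the minimum totals, the prior and the deposited values, which add 1 after scaling, could change it, and its direction stayed the same. Scaling by total counts moved the mitochondrial median to 0.05 in senescent against young cells and to 0.233 on adding phenamil, and gave 2 mitochondrial and 1 nuclear members lower in senescent cells and 0 nuclear members higher on adding phenamil. Counts of calls depended on the fold. At 1.1-fold, senescent against young cells had 4 mitochondrial members higher and 3 lower, and 45 nuclear members higher and 2 lower. TSA had 3 mitochondrial members higher, and 33 nuclear members higher and 4 lower. Both compounds had 6 nuclear members higher and 26 lower, and adding phenamil had 46 lower. At 1.5-fold, senescent against young cells had 0 mitochondrial members lower and 2 nuclear ones higher. TSA had 0 mitochondrial members higher and 1 lower, and 1 nuclear member higher and 0 lower. Both compounds had 1 mitochondrial member higher, and 0 nuclear members higher and 2 lower, and adding phenamil had 2 mitochondrial members higher, and 0 nuclear members higher and 2 lower. Calling by fold without the interval gave 1 nuclear member lower in senescent cells, 3 lower with TSA and 3 higher on adding phenamil. The other 132 counts of calls stayed within 1.5 times. No paired analysis was possible because each condition has 1 library and the labels give no replicate numbers, and for the same reason no library could be left out. Depth limits single genes with under about 100 counts, such as Cox6b2 and Cox7a1.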

Other observations

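Mitochondrial transfer RNAs are cut from the long transcripts of both strands, and 10 of their genes had at least 40 counts over the libraries. The strand of each gene was not taken into account here. Trnd, next to COX2, had 247, 197, 316 and 336 counts in young, senescent, TSA and TSA with phenamil libraries, and was 1.78 times (1.49 to 2.14) the senescent control with TSA and 1.79 times (1.496 to 2.14) with both compounds. Trnm had 162, 128, 151 and 83 counts and Trnn had 170, 103, 74 and 42 counts, so both were lowest with both compounds, where most messengers were highest. Trns2 had 104, 57, 99 and 54 counts, high in the young and TSA libraries. The 10 genes summed were 0.737 times (0.663 to 0.818) the young level in senescent cells, 1.34 times (1.205 to 1.496) the senescent level with TSA, 1.08 times (0.9648 to 1.21) with both compounds, and 0.804 times (0.722 to 0.895) the TSA level on adding phenamil. Mature transfer RNAs carry no long tail, and what these reads stand for in a 3' library was not tested.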
